A study of Mus musculus with 6 samples.

Results

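A set of 9 genes of meiotic prophase was followed in fully grown mouse oocytes with and without Nat10. They were chosen by name among the 25239 gene symbols of the count table and are Stag3 and Smc1b, which encode meiosis-specific cohesin subunits, Sycp1, Sycp2 and Sycp3, which encode structural proteins of the synaptonemal complex, Hormad1 and Hormad2, which encode proteins of the chromosome axis, and Dmc1 and Msh4, which act in recombination. All 9 were found, and all 9 passed the filter on low counts. Their donors were wild type (WT) or carried a conditional knockout (cKO) of Nat10 driven by Gdf9-cre, a Cre expressed in oocytes from early follicle stages on. NAT10 writes N4-acetylcytidine on RNA. Both groups received PMSG, a gonadotropin that stimulates follicle growth, and oocytes were taken 36 to 48 h later for Smart-seq2, a full-length method for poly(A) RNA. Each genotype had 3 libraries. The labels give neither strain nor age, and do not say whether libraries came from separate animals or how many oocytes each held, so the error behind each p-value is that between libraries and may be technical.

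In female mice the chromosomes pair and recombine before birth. The synaptonemal complex holds homologs together along axes built on cohesin. DMC1 carries out strand exchange and MSH4, with MSH5, stabilises the intermediates that become crossovers. Oocytes then arrest at the end of prophase and grow for weeks in that state, in which cohesin laid down earlier keeps the chromosomes joined until ovulation. Fully grown oocytes are thus long past the stage at which most of these proteins act.

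The start regions of 6 of the genes are printed first, because several meiotic genes carry 2 short motifs there. The E-box CACGTG and the E2F-type motif GCGGGAA are known as landing sites of a Polycomb complex that keeps germline genes silent in other mouse cells. One more motif, CNCCTCAG, is known for the meiotic entry factors STRA8 and MEIOSIN. Each window runs from 250 bases before the RefSeq transcript start to 30 bases after it (280 bases, GRCm38.p6, the mm10 assembly), 5′ to 3′ on the gene's strand, and capitals mark any of the 3 motifs on either strand. The first 4 genes rose in cKO as described further on. Hormad1 and Smc1b are shown beside them as genes that did not pass the test, and both hold a motif. Sycp1, Sycp2 and Msh4 did not pass either and are not printed.
Stag3: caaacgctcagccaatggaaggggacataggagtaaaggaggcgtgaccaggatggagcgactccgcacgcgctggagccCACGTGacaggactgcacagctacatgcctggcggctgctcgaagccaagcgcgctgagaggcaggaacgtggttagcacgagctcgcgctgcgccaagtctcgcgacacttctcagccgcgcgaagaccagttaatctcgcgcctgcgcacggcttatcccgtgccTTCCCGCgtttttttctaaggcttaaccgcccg
Sycp3: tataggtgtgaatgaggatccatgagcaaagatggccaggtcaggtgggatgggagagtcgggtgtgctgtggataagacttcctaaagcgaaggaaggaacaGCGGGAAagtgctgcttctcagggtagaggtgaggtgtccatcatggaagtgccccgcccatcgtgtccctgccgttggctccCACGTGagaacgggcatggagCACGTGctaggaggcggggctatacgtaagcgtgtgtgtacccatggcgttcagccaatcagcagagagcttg
Hormad2: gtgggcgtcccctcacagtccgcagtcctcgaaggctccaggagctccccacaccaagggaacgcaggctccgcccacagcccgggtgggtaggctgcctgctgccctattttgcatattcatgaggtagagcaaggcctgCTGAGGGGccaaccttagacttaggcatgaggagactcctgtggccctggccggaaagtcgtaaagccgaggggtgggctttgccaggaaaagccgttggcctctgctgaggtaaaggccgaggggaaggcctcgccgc
Dmc1: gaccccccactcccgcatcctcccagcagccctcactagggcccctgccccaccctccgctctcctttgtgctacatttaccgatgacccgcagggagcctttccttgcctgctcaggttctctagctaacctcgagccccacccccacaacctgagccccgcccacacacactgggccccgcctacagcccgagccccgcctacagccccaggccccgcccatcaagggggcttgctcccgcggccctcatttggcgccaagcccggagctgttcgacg
Hormad1: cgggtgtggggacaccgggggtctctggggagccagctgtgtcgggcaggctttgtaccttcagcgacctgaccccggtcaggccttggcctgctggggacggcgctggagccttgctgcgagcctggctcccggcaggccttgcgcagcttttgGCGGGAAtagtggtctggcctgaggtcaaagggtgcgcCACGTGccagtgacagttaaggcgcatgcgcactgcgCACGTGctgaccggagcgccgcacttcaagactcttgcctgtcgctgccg
Smc1b: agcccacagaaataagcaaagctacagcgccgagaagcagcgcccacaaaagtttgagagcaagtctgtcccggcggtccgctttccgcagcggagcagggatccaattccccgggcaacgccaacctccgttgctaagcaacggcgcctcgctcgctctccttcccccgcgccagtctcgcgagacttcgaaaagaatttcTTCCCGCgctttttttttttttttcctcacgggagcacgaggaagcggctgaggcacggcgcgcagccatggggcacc

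The windows shown are chr5:138280259-138280538 on the plus strand for Stag3, chr10:88459337-88459616 on the plus strand for Sycp3, chr11:4441053-4441332 on the minus strand for Hormad2, chr15:79605080-79605359 on the minus strand for Dmc1, chr3:95559427-95559706 on the plus strand for Hormad1 and chr15:85131928-85132207 on the minus strand for Smc1b. The E-box was found in 4 of the 9 genes (Stag3, Sycp1, Sycp3 and Hormad1), against 6.79% of 32851 RefSeq start windows of the same length. The E2F-type motif was found in 4 of the 9 (Stag3, Smc1b, Sycp3 and Hormad1), against 4.29% of windows. Stag3, Sycp3 and Hormad1 held both; in Sycp3 the E-boxes began 64 and 43 bases before the start, and in Hormad1 57 and 20 bases before it. The motif CNCCTCAG was found in Hormad2 alone of the 9, 109 bases before its start, against 7.29% of windows. None of the 3 was in the windows of Dmc1, Sycp2 or Msh4. Each gene was searched in a single window, that with the lowest coordinate, while the background shares count every window. The windows with an E-box or E2F-type motif had 56.4% to 67.1% G and C, beside a median of 52.5% over all windows. The background was not matched on this. For Dmc1 and Sycp2 the start used was the 5′ end of the gene as the count table spans it. For Msh4 the RefSeq start used lies inside the gene as the count table spans it. The genes with both motifs thus included Stag3 and Sycp3, which rose, and Hormad1, which did not pass the test, while Dmc1 and Hormad2, which rose, held neither. A match is a description of the letters and not a bound site.

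The labels were checked on the targeted transcript. In WT the level of Nat10 was 48.0, 45.0 and 64.5 CPM, where CPM are counts scaled to library totals after TMM, a normalization to the other transcripts. In cKO it was 7.18, 7.64 and 7.98 CPM, or 14.5% of WT. The cells carried the transcripts of oocytes: Gdf9 and Bmp15, the oocyte-secreted factors, had means of 7675 and 4895 CPM in WT, and the summed level of 12 oocyte markers was 27033 to 31531 CPM in WT and 30724 to 32181 CPM in cKO. Library totals ran from 20167665 to 29407659 counts. Across all 14114 genes tested, 40.2% were called in edgeR's quasi-likelihood test at an adjusted p under 0.05, 20.1% as higher and 20.1% as lower in cKO. The ranges of the genotypes did not overlap for 52.0% of genes, with cKO the higher for 26.0%. These shares are the background for the counts that follow.

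Of the 9 genes, 4 rose in cKO and 0 fell, so that 44.4% were called, a share near the 40.2% of all genes tested, of which 20.1% rose. The genes that rose were Stag3, Sycp3, Hormad2 and Dmc1, with fitted folds of 2.58, 2.13, 2.37 and 5.47. Scaled by spike-in RNA, Stag3, Sycp3 and Hormad2 were under 2-fold. The other 5, Smc1b, Sycp1, Sycp2, Hormad1 and Msh4, did not pass the test, and their genotypes overlapped in CPM. The median log2 fold change of the 9 was 0.32, beside 0.01 for all genes tested. The cohesin, synaptonemal complex, HORMA-domain and recombination genes each held 1 gene that rose and at least 1 that did not pass. The plot of CPM by library shows the separation.

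**Figure D1:**
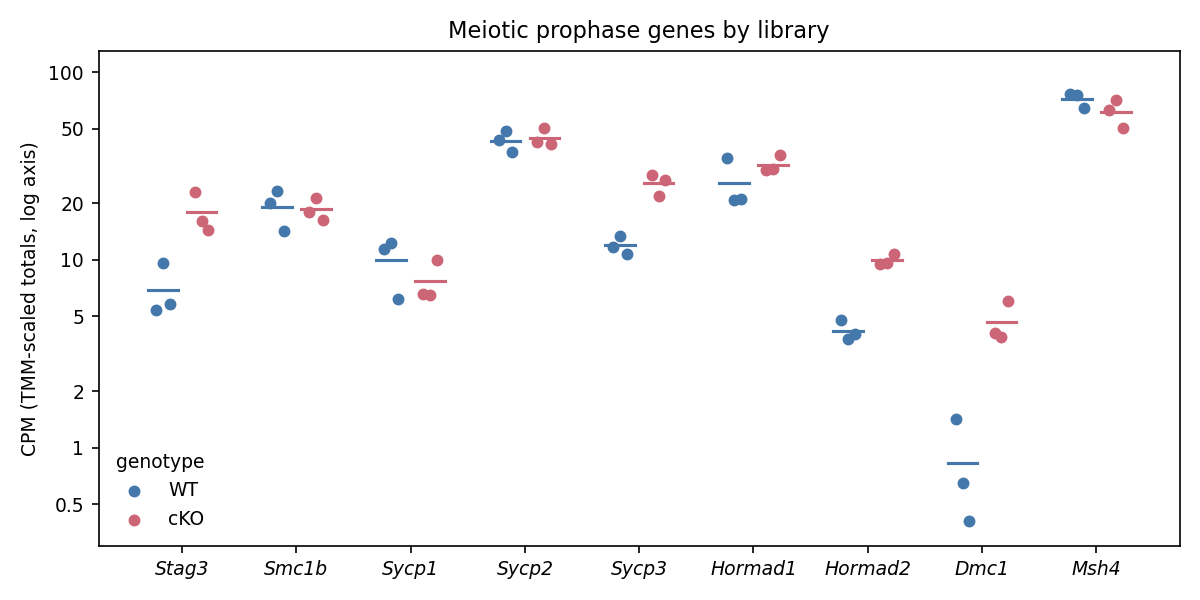
CPM of the 9 genes in each library on a log axis, with points for the 3 WT (blue) and 3 cKO (red) libraries and a line at each mean. The genotypes are separate for Stag3, Sycp3, Hormad2 and Dmc1, and overlap for Smc1b, Sycp1, Sycp2, Hormad1 and Msh4.

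Cohesin is a ring of SMC proteins closed by a kleisin, and a STAG protein binds to it. Stag3 encodes the STAG protein of meiotic rings and lies on chromosome 5 (138280509 to 138312393, plus strand, mm10, as all positions here). It was at 5.38, 9.64 and 5.80 CPM in WT and at 23.0, 16.2 and 14.5 CPM in cKO. Every cKO library was above every WT library, and the spread within each genotype was wide. The means were 6.94 ± 2.35 and 17.9 ± 4.5 CPM (SD, n = 3), and the log2 fold change was 1.37 ± 0.27 (SE; adjusted p = 0.00153, edgeR's quasi-likelihood test). Smc1b encodes the SMC protein that replaces SMC1A in meiotic rings, and mice without it lose cohesion in ageing oocytes. It lies on chromosome 15 (85064689 to 85131957, minus strand). Its level was 20.1, 23.2 and 14.3 CPM in WT and 17.95, 21.4 and 16.4 CPM in cKO, with the cKO libraries inside the WT range. The log2 fold change was -0.05, with a 95% interval from -0.50 to 0.41.

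The rise of Stag3 came with a fall of another STAG gene. Stag2, which together with Stag1 encodes the STAG proteins of mitotic cohesin, was at 40.5, 44.2 and 39.1 CPM in WT and at 12.4, 15.7 and 8.81 CPM in cKO. The lowest WT library was more than double the highest cKO library, and the log2 fold change was -1.75 ± 0.21 (SE; adjusted p = 5.75e-05, edgeR's quasi-likelihood test). Stag1 did not pass the test (28.9 ± 4.1 against 25.1 ± 3.0 CPM, SD, n = 3). Per kilobase of exon, Stag3 made up 10.99%, 16.6% and 10.8% of the summed transcripts of the 3 STAG genes in WT and 46.4%, 36.6% and 41.4% in cKO. Stag2 made up 54.5%, 50.2% and 47.7% in WT and 16.4%, 23.4% and 16.6% in cKO, while the shares of Stag1 overlapped. Stag2 was thus the most abundant STAG transcript in each WT library, and in cKO libraries it was the least abundant. Such shares are taken within a library and do not depend on how libraries are scaled. The gene pairs compared here and below were chosen after their values were seen and have no test of their own.

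**Figure D2:**
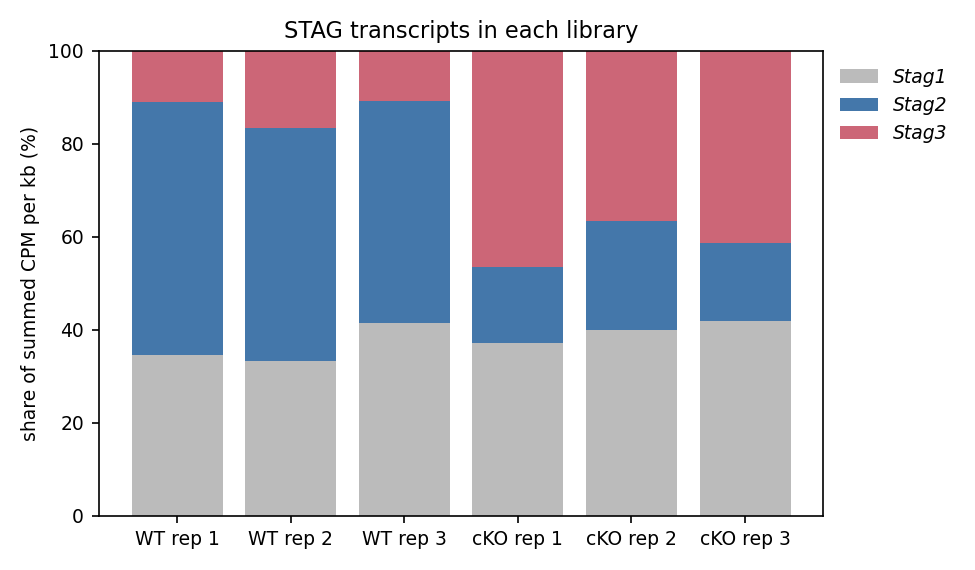
Share of Stag1, Stag2 and Stag3 in their summed CPM per kilobase of exon, one bar per library, in percent. Stag3 takes 10.8% to 16.6% of the sum in WT and 36.6% to 46.4% in cKO, and Stag2 47.7% to 54.5% in WT and 16.4% to 23.4% in cKO.

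No other tested gene of the kleisin or SMC subunits passed the test. Rec8, which encodes the kleisin that holds sister chromatids in meiosis and did not pass the filter on low counts, had 0 counts in each WT library, which allows up to 0.107 to 0.153 CPM, and 2, 0 and 2 counts in the cKO libraries. Whether the annotation or counting of Rec8 set these zeros was not tested. Rad21l, another meiotic kleisin gene, was at 1.90 ± 0.52 and 1.46 ± 0.43 CPM (SD, n = 3), and Rad21, the general kleisin gene, at 53.0 ± 0.9 and 63.2 ± 14.7 CPM. Smc1a (72.5 ± 4.0 and 89.2 ± 3.1 CPM) and Smc3 (171 ± 14 and 142 ± 15 CPM) encode the SMC proteins of general cohesin.

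The synaptonemal complex has axial elements, built from SYCP2 and SYCP3, and transverse filaments of SYCP1 that zip the homologs together. Sycp3, on chromosome 10 (88459587 to 88473236, plus strand), was at 11.8, 13.5 and 10.8 CPM in WT and at 28.4, 21.9 and 26.5 CPM in cKO. The WT libraries lay close together and all cKO libraries lay above them. The means were 12.0 ± 1.4 and 25.6 ± 3.4 CPM (SD, n = 3), and the log2 fold change was 1.09 ± 0.19 (SE; adjusted p = 0.000668, edgeR's quasi-likelihood test). Of its 1122 exonic bases, 80 overlap Chpt1 on the other strand, which the method cannot tell apart; Chpt1 itself was counted at no more than 1.07 CPM in any library.

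Sycp2, whose product forms the axial elements with SYCP3, did not follow it. This gene on chromosome 2 (178345296 to 178407658, minus strand) was at 43.6, 48.4 and 37.5 CPM in WT and at 42.6, 50.2 and 41.2 CPM in cKO, with a log2 fold change of 0.05 and a 95% interval from -0.29 to 0.38. Within each library the ratio of Sycp3 to Sycp2 per kilobase was 1.37, 1.41 and 1.46 in WT and 3.39, 2.21 and 3.26 in cKO. Sycp1, on chromosome 3 (102818499 to 102936100, minus strand), was at 11.4, 12.3 and 6.21 CPM in WT and at 6.61, 6.52 and 9.96 CPM in cKO. One library of each genotype lay apart from the other pair, WT replicate 3 low and cKO replicate 3 high, and the genotypes overlapped. The log2 fold change was -0.38, with a 95% interval from -0.99 to 0.24. Its processed copy Sycp1-ps1 on chromosome 7 had at most 6 counts in a library.

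HORMAD1 and HORMAD2 coat axes that have not yet synapsed, where they promote recombination and mark chromosomes that failed to pair. Hormad2, on chromosome 11 (4346383 to 4441082, minus strand), was at 4.78, 3.78 and 4.02 CPM in WT and at 9.51, 9.64 and 10.7 CPM in cKO. The libraries of each genotype lay close together, at 4.19 ± 0.52 and 9.95 ± 0.64 CPM (SD, n = 3). The log2 fold change was 1.24 ± 0.23 (SE; adjusted p = 0.00113, edgeR's quasi-likelihood test). Hormad1, on chromosome 3 (95559677 to 95587863, plus strand), was at 35.0, 20.8 and 21.1 CPM in WT and at 29.97, 30.4 and 36.0 CPM in cKO. WT replicate 1 alone of the WT libraries lay within the cKO range. The log2 fold change was 0.32, with a 95% interval from -0.13 to 0.78. Without WT replicate 1 it was 0.63, and Hormad1 then passed the test (adjusted p = 0.0311, edgeR's quasi-likelihood test). The ratio of Hormad2 to Hormad1 per kilobase was 0.195 to 0.272 in WT and 0.424 to 0.454 in cKO.

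DMC1 is the recombinase made for meiosis. Dmc1, on chromosome 15 (79561498 to 79605109, minus strand), had 40, 14 and 8 counts in the WT libraries and 122, 110 and 168 in the cKO libraries. These correspond to 1.43, 0.65 and 0.41 CPM in WT and 4.07, 3.86 and 6.04 CPM in cKO, so that Dmc1 was the rarest of the 9 transcripts in WT. The log2 fold change was 2.45 ± 0.44 (SE; adjusted p = 0.000916, edgeR's quasi-likelihood test), with a 95% interval from 1.49 to 3.41. Its size varied with the library left out, from 2.14 without WT replicate 3 to 3.15 without WT replicate 1. The ratio of Dmc1 to Msh4 per kilobase was 0.0105 to 0.0311 in WT and 0.0907 to 0.199 in cKO.

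Msh4 was the most abundant of the 9 in CPM and did not pass the test. It lies on chromosome 3 (153857141 to 153906138, minus strand) and was at 76.7, 75.3 and 64.5 CPM in WT and at 62.9, 71.1 and 50.6 CPM in cKO. The log2 fold change was -0.23, with a 95% interval from -0.56 to 0.10. Msh5, which encodes its obligate partner, was at 1.24 ± 0.56 and 1.61 ± 0.18 CPM (SD, n = 3) and did not pass either. The oocytes thus held many Msh4 reads and few Msh5 reads in both genotypes.

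**Figure D3:**
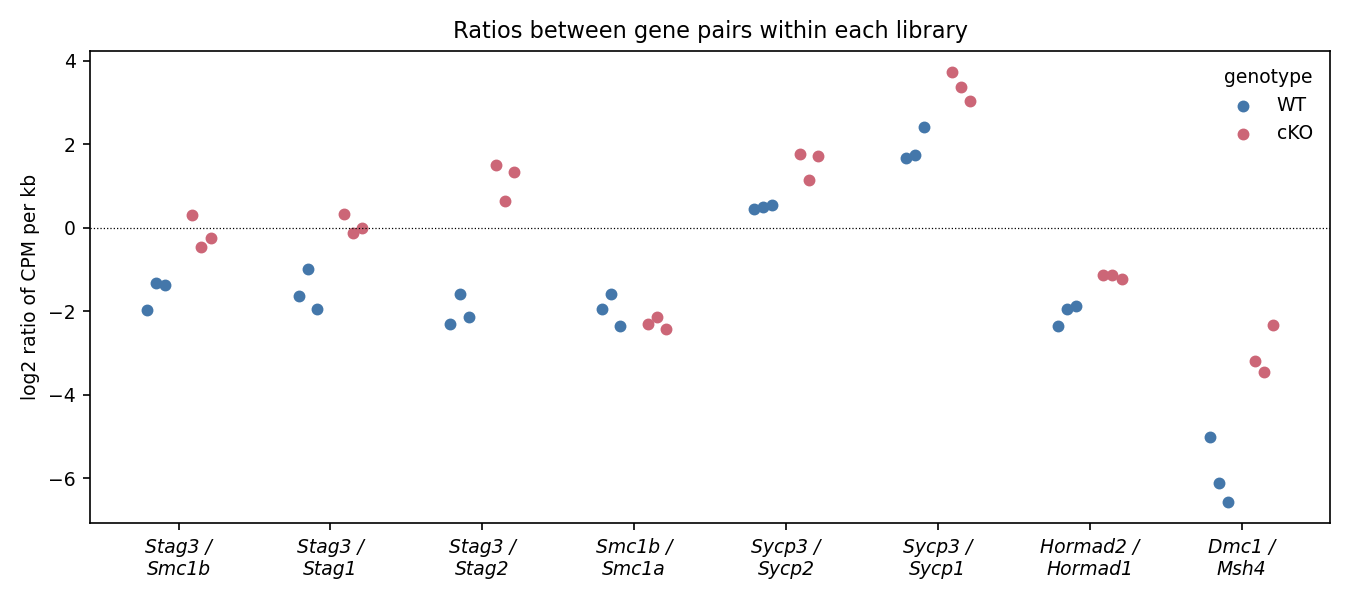
Log2 ratio of CPM per kilobase of exon between the genes of 8 pairs, one point per library (WT blue, cKO red). The genotypes do not overlap in 7 pairs, each of which has Stag3, Sycp3, Hormad2 or Dmc1 as its first gene, and overlap for Smc1b to Smc1a.

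Per kilobase of exon, the order of the 9 transcripts differed between the genotypes. In WT it ran from Msh4 (19.5 CPM per kilobase) through Hormad1 (13.4), Sycp3 (10.7), Sycp2 (7.59), Smc1b (4.75), Hormad2 (3.12), Sycp1 (2.90) and Stag3 (1.64) to Dmc1 (0.37). The library ranges of neighbours overlapped except between Sycp3 and Sycp2, between Sycp2 and Smc1b, and between Stag3 and Dmc1. In cKO Sycp3 came first (22.8 CPM per kilobase), above the range of Hormad1 (16.7), which overlapped that of Msh4 (16.6). Sycp2 (7.85) and Hormad2 (7.41) overlapped, as did Smc1b (4.60) with Stag3 (4.24), and Sycp1 (2.24) with Dmc1 (2.10). Hormad2 with Sycp2, Stag3 with Smc1b, and Sycp1 with Dmc1 overlapped in cKO and not in WT. Together the 9 transcripts made up 0.0160% to 0.0200% of the gene counts in WT and 0.0224% to 0.0236% in cKO.

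The 4 rises kept their direction and their call under each of 15 alternative settings of scaling, filter, tool, block, length correction and left-out library. Over these the log2 fold change ran from 0.98 to 1.69 for Stag3, from 0.70 to 1.22 for Sycp3, from 0.84 to 1.37 for Hormad2 and from 2.03 to 3.15 for Dmc1, and the largest adjusted p was 0.0332, for Hormad2. The lowest values came from scaling by ERCC, the spike-in RNA added to each sample. The authors' table gave 288 to 370 endogenous reads per ERCC read in WT and 214 to 270 in cKO (exact permutation test, two-sided p = 0.10, the smallest that 3 against 3 allows). In bulk libraries fewer cells and less RNA per cell cannot be told apart. This scaling moved the median log2 fold change of all genes to -0.39, with 8.37% of genes called higher, 34.2% lower and 42.6% in all. Relative to the spike-in the 4 rises were still called, and Sycp1 (-0.82) and Msh4 (-0.64) were called lower. The error model of this fit differed from that of the main test. SEs were wider, at 0.27 against 0.19 for Sycp3 and 0.34 against 0.23 for Hormad2. The adjusted p of Nat10 was nonetheless smaller (5.49e-29 against 1.95e-06, edgeR's quasi-likelihood test). Calls under spike-in scaling therefore do not carry the same weight as those of the main test. Sycp3 and Hormad2 are the shortest of the 9 (1122 and 1343 exonic bases). With the trend of expression on transcript length removed in each library they changed by 0.86 and 1.02, and Stag3 (4228 bases) by 1.41.

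**Figure D4:**
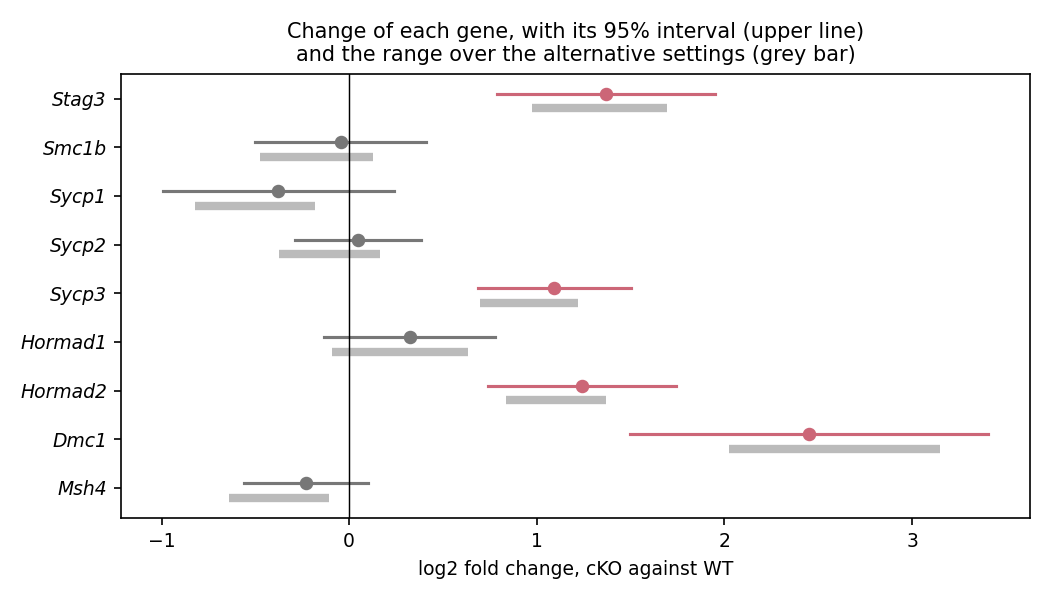
Log2 fold change of each gene in cKO against WT, with its 95% interval from edgeR's quasi-likelihood test (point and thin line, red where called) and the range over 15 alternative settings (grey bar). Stag3, Sycp3, Hormad2 and Dmc1 stay above 0 in both; Smc1b, Sycp2 and Hormad1 reach both sides of 0 over the settings, while Sycp1 and Msh4 stay below 0 over the settings with intervals that include 0.

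In the main test the wider meiotic machinery did not share a direction. Among 69 other genes of cohesin, synapsis, recombination and meiotic entry, 62 were tested, 8 rose and 14 fell, and the median log2 fold change was -0.10. This is 35.5% called, against 40.2% of all genes. With spike-in scaling 0 of the 62 were higher and 24 lower, against 8.37% and 34.2% of all genes. With library totals alone 11 of the 62 were higher and 9 lower, against 24.4% and 16.0% of all genes.

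Of the 19 cohesin genes tested, 2 rose and 5 fell. This is 36.8% called, near the 40.2% of all genes. Beside Stag2 the falls were in Esco1, which encodes an acetyltransferase that stabilises cohesin (227 ± 25 to 113 ± 26 CPM, SD, n = 3), in Wapl, which encodes the factor that opens the ring (202 ± 8 to 148 ± 12 CPM), and in the shugoshin genes Sgo1 and Sgo2a, whose products shield centromeric cohesin from cleavage. Sgo1 fell to 58.7% and Sgo2a, the shugoshin needed in mouse oocytes, to 58.5% of WT. Wapl was no longer called without cKO replicate 1 (adjusted p = 0.0506, edgeR's quasi-likelihood test). Pttg1, the securin gene, rose from 1407 ± 137 to 2075 ± 241 CPM, a call lost with spike-in scaling. Pds5a, which encodes a cohesin-associated factor and was named after its value was seen, rose to 177% of WT, a call lost with spike-in scaling and without cKO replicate 1. Cdca5, the abundant sororin gene, did not pass (782 ± 79 and 751 ± 81 CPM).

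Among 12 tested genes of the synaptonemal complex, axis and telomere attachment, 1 rose and 4 fell. This is 41.7% called, near the 40.2% of all genes. Sycp2l, an oocyte paralog of Sycp2, was at 58.9, 64.1 and 39.8 CPM in WT and at 25.9, 30.1 and 18.6 CPM in cKO, and fell to 45.8% of WT. Terb1, which ties telomeres to the nuclear envelope in prophase, fell to 62.4%, and Sun1, an envelope protein of the same link, to 74.6%. Syce1, a central element gene, fell from 3.18 ± 0.52 to 1.57 ± 0.58 CPM (SD, n = 3), and Terb2, the partner of Terb1, rose from 1.06 ± 0.57 to 2.51 ± 0.32 CPM. The calls of Syce1 and Terb2 each held under 8 of the 15 settings and that of Sun1 under 10. Skp1a, which also serves ubiquitin ligases (2921 ± 295 and 2993 ± 87 CPM), and the central element gene Syce2 (468 ± 41 and 481 ± 40 CPM) did not pass.

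Among 27 tested recombination genes 4 rose and 5 fell. This is 33.3% called, below the 40.2% of all genes. Mei1, required for meiotic double-strand breaks, rose from 0.71 ± 0.30 to 2.34 ± 0.19 CPM (SD, n = 3), and Hsf2bp, whose product helps bring BRCA2 to breaks in spermatocytes, rose from 121 ± 10 to 170 ± 10 CPM. Its partner gene 4930432K21Rik, also known as Brme1, fell to 74.3% of WT. Ccnb1ip1, the crossover factor HEI10, rose from 20.03 ± 3.30 to 34.8 ± 8.2 CPM, while Tex11, another crossover factor, fell to 57.7% and the nuclease gene Mus81 to 70.6%. The calls of Mei1, Hsf2bp and Ccnb1ip1 were lost with spike-in scaling, that of Mus81 without WT replicate 1 (adjusted p = 0.0534, edgeR's quasi-likelihood test), and that of 4930432K21Rik under 3 settings. Sfr1, the most abundant of the list, did not pass (952 ± 102 and 826 ± 34 CPM). Of 4 tested genes of meiotic entry 1 was called, or 25.0%. This was Dazl, a germ-cell RNA-binding protein gene, which rose from 694 ± 137 to 978 ± 123 CPM, a call lost with spike-in scaling. Ythdc2 did not pass. Stra8, the inducer of meiotic entry, had 0 counts in all 6 libraries, as had Spo11, which makes the breaks.

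**Figure D5:**
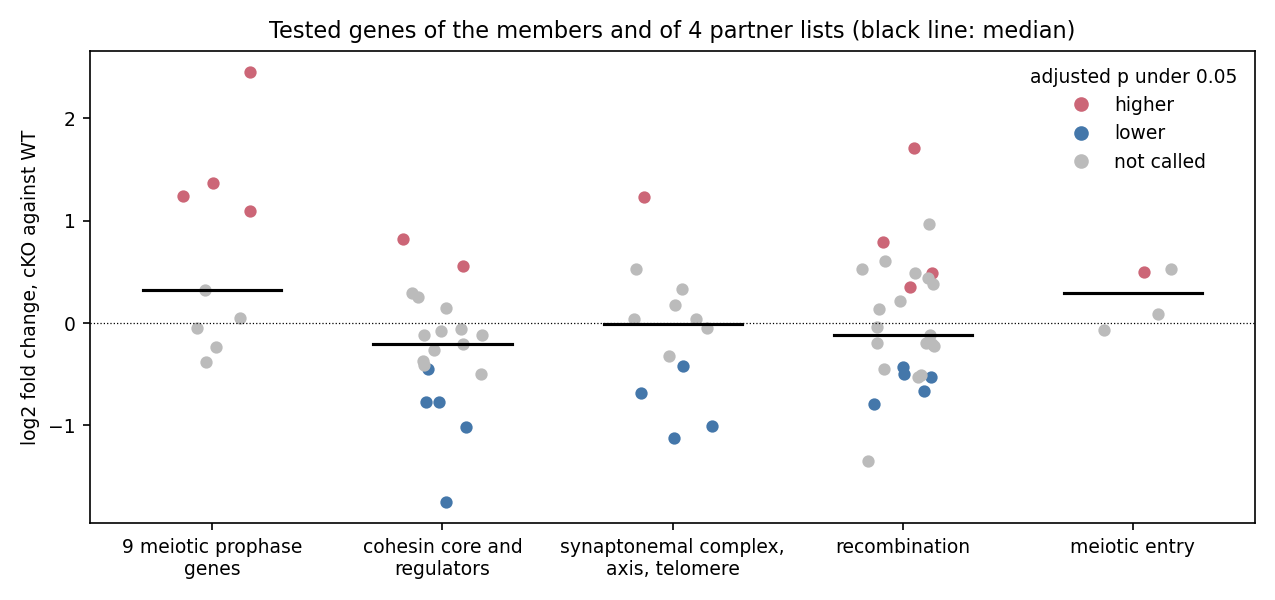
Log2 fold change in cKO against WT of the 9 genes and of the tested genes of 4 lists of partners, one point per gene, red where higher and blue where lower at an adjusted p under 0.05; black lines are medians. The 9 genes hold 4 red and 0 blue points, and the 4 lists together hold 8 red and 14 blue.

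Transcripts of other ovarian cells were low in both genotypes. The summed level of 15 granulosa and cumulus markers was 101 to 106 CPM in WT and 82.8 to 86.1 CPM in cKO. Of the 11 tested, 2 fell (Inha to 37.7% and Hsd17b1 to 21.7% of WT) and 0 rose. This is 18.2% called, against 40.2% of all genes. Cyp19a1 and Nr5a2 were the most abundant. The summed level of 15 markers of theca, stroma, endothelium, blood and epithelium was 72.8 to 78.8 CPM in WT and 82.4 to 86.4 CPM in cKO. Most of it was Pecam1 (58.9 and 61.6 CPM) and Krt8 (9.62 and 12.8 CPM). Cdh5, another endothelial marker, had at most 6 counts in a library, and Krt18, another keratin gene, at most 11. The cells behind the Pecam1 and Krt8 reads were thus not settled by these markers. Of the 7 tested markers of this list 1 was called, or 14.3%. This was Epcam, which rose from 1.35 to 2.88 CPM. The hemoglobin genes Hbb-bs and Hba-a1 had 0 counts in all libraries, and the leukocyte marker Ptprc had 0 in each WT library and 2, 6 and 2 in the cKO libraries. The part of these transcripts in the 4 rises was not tested.

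The genes whose log2 CPM ran most like each of the 4 over the 6 libraries were Tmem159, Cfap77 and Zfp954 for Stag3 (Pearson r of 0.992 to 0.996), Rdm1, Fastk and Slc30a7 for Sycp3 (0.999 each), Rbm8a, Rps28 and Htr5b for Hormad2 (0.998 to 0.999) and Asf1a, Idh3g and Tenm1 for Dmc1 (0.997 to 0.999). These correlations carry the difference between the genotypes, and 199, 727, 754 and 471 of 13126 genes reached an r above 0.95 with Stag3, Sycp3, Hormad2 and Dmc1. Between the 4 themselves, r ran from 0.78 for Stag3 with Dmc1 to 0.97 for Hormad2 with Dmc1. Among the genes that did not pass the test, r was highest for Smc1b with Sycp2, at 0.94. Their other pairs ran from -0.34 for Hormad1 with Msh4 to 0.67 for Smc1b with Msh4.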

How the data were processed

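The authors deposited raw counts per gene symbol for the 6 libraries, with exonic coordinates and lengths in the layout of featureCounts, per the file headers. Tools listed in the submitters' processing notes are STAR 2.7.10a, Trim Galore 0.6.7 and featureCounts, with the build mm10; strand and multi-mapping settings are not given in the sources used here. Smart-seq2 carries no molecular identifiers and no strand, so floors (3 counts, 0.100 to 0.153 CPM) cover counting error only, while the 95% intervals of fold changes carry the spread between libraries. A second deposited table gives mapped and ERCC shares as fractions of 1, with no stated denominator.

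The test was edgeR 4.0.16 (R 4.3.3): TMM factors, filterByExpr (minimum count 10, 14114 genes), quasi-likelihood F test of genotype without a block, two-sided, Benjamini-Hochberg adjustment over all tested genes at 0.05, checked on simulated counts. SEs are the log2 fold change divided by the square root of F. Alternatives were RLE factors, library totals alone, spike-in scaling, no filter, at least 1 CPM in 3 libraries, DESeq2 1.42.0, limma-voom 3.58.1, a replicate block, a per-library length trend (mgcv 1.9.3) and each library left out. Likeness used log2 CPM with a prior count of 2, leaving out predicted genes. Groups and replicate numbers came from the sample titles.

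Members and lists were chosen with earlier results of these data known. Named partners were the called genes with the smallest p (up to 6 a list) and the 2 most abundant; the cohesin ring genes, Msh5, Rec8, Spo11, Stra8 and Pds5a were added after their values were seen. One of the partner genes that this rule takes is not reported here.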

Additional observations from a re-analysis of the deposited data

How the results depend on the processing

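Spike-in scaling moved the counts most. With it, 2 of the 9 genes were called lower (0 in the main test), 0 partner genes were higher and 24 lower (8 and 14 in the main test), and 1182 of all genes were higher and 4832 lower (2836 and 2838). With library totals alone 11 partner genes were higher and 9 lower. Of all genes 24.4% were then higher and 16.0% lower, and their median moved to 0.12. Leaving out 1 library at a time gave 9 to 13 partner genes lower, the fewest without WT replicate 1. Of all genes 14.6% to 18.6% were lower in these fits, also the fewest without WT replicate 1, against 20.1% in the main test. The same fits gave 4 or 5 of the 9 genes higher, where the fifth is Hormad1, beside 15.2% to 19.3% of all genes. Among the 5 genes that did not pass, the log2 fold change turned its sign for Smc1b with library totals alone (0.069), for Sycp2 (-0.37) and Hormad1 (-0.091) with spike-in scaling, and for Smc1b and Sycp2 when single libraries were left out, where Smc1b ran from -0.22 to 0.13 and Sycp2 from -0.044 to 0.15. The cause of these changes was not tested. The deviations of same-numbered libraries from their genotype means correlated at -0.02, 0.06 and 0.11 across genes. Those of differently numbered libraries correlated at -0.11 to 0.065. With so few libraries these values cannot tell whether replicate numbers pair them. With the replicate number as a block, 4 of the 9 genes were higher and 0 lower, 8 partner genes higher and 16 lower, and 3089 of all genes higher and 3110 lower. Low counts limit Dmc1 in WT, where 8 to 40 counts stand behind each value.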
